A study of Mus musculus with 18 samples.

Results

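Across 18 RNA sequencing libraries of mouse LSK cells, 8 genes of the glucocorticoid response were followed: Fkbp5, Hif3a, Tsc22d3, Per1, Klf9, Zbtb16, Sgk1 and the receptor gene Nr3c1. They were found by their names, 8 of 25601 distinct names in each of 2 deposited tables (25629 rows), which list names in capitals (FKBP5, HIF3A, TSC22D3, PER1, KLF9, ZBTB16, SGK1 and NR3C1). The set was chosen by the values of Fkbp5 and Hif3a, which were lower in freshly sorted cells of irradiated mice than in those of controls, and the other 6 were added as known targets or the receptor. For the members, the comparison of fresh irradiated with fresh control cells is therefore given as a description, without a test. The rule names no value of cultured cells, but earlier results of these data were known when the set was drawn up.

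LSK cells are bone marrow cells without lineage markers that carry cKit and Sca1, a population that holds the hematopoietic stem cells. All mice were C57Bl/6. Mice of the irradiated groups (IR) had received 2.5 Gy from a Cs-137 source, a sublethal dose, and were left to recover for 9 weeks or more, whereas control mice (CTRL) are labelled normal. Fresh IR and fresh CTRL each had 3 libraries, and each library pooled LSK cells sorted from 3 mice. Cultured libraries each came from 200 LSK cells of 1 mouse, kept for 6 days in SCF, Flt3L, IL-11 and IL-6 (cytokines that sustain stem and progenitor cells) and sorted again as LSK. These cultures made 4 groups of 3: IR with DL1, CTRL with DL1, IR without DL1 and CTRL without DL1, where DL1 was read as the Notch ligand Delta-like 1, whose form the labels do not give. The labels name no glucocorticoid among the culture additions and give neither the hour of harvest nor any hormone level. A label field of the controls speaks of irradiated cells, but their titles and conditions name controls, and these were used.

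Glucocorticoids are steroid hormones that cross the cell membrane and bind the glucocorticoid receptor, which Hsp90 and its co-chaperones hold in the cytoplasm in a form that can take up hormone. The loaded receptor enters the nucleus, binds paired copies of a short motif near its target genes and raises their transcription, while it represses many inflammatory genes through NF-kB and AP-1. Some of the induced genes, such as Fkbp5, feed back on the receptor. In blood formation the hormone is known for killing lymphocyte precursors, for supporting stress erythropoiesis and for releasing neutrophils, and its daily rhythm sets clock genes such as Per1 in many tissues.

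Values are FPKM (fragments relative to transcript length and to library size), from tables that were normalized separately for fresh and cultured libraries, so no test crosses the tables. Changes are log2 fold changes ± standard error of log2(FPKM + 1), which understates the change of genes near or below an FPKM of 1. Between 16863 and 18200 names were above 0 in a library. Relative depth, read from the steps between low values, lay between 0.645 and 1 in fresh libraries and between 0.756 and 1.09 in cultured libraries, except IR with DL1 replicate 2 at 0.488. Ribosomal RNA-like rows, a name used here for ribosomal RNA together with small noncoding RNAs, held 18.8% of FPKM in fresh CTRL replicate 2. They held between 12.3 and 15.4% in the other fresh libraries. Ribosomal RNA alone was not counted. The sort markers were present in every group: Kit averaged 112 ± 8.38 FPKM in fresh IR and 106 ± 10.2 in fresh CTRL (SD, n = 3 each), and Ly6a, which encodes Sca1, averaged 149 ± 34.0 and 166 ± 40.2. In cultures group means of Kit lay between 34.3 and 39.0 FPKM and those of Ly6a between 496 and 596. These are bulk libraries, in which fewer cells of a type and less RNA per cell cannot be told apart. Nothing in the labels says that cultures with the same number share a mouse, and p-values measure the spread between these libraries.

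In fresh irradiated LSK cells the 2 genes that chose the list were lowest relative to control, Tsc22d3 and Klf9 also stood below every control library, and Per1, Sgk1, Zbtb16 and Nr3c1 overlapped with control. Fkbp5 encodes FKBP51, an Hsp90 co-chaperone that lowers the receptor's affinity for hormone. It measured 20.2, 21.6 and 18.6 FPKM in the 3 IR libraries, against 38.2, 41.1 and 33.2 FPKM in the 3 CTRL libraries. The IR mean was 53.7% of the CTRL mean (log2 fold change -0.86 ± 0.10), and the groups did not overlap. Hif3a encodes an alpha subunit of the hypoxia-inducible factors, some forms of which oppose Hif1a and Epas1. It measured 1.90, 2.11 and 1.29 FPKM in IR cells, against 6.95, 6.48 and 8.32 FPKM in CTRL cells, so that IR cells held 24.4% of the CTRL level (-1.58 ± 0.15). That is the largest difference of the 8 members in either direction.

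Tsc22d3 encodes GILZ, a leucine zipper protein that binds and restrains NF-kB and AP-1 and carries part of the anti-inflammatory action of the hormone. It was the most abundant of the 8 in fresh cells, at 75.7, 96.5 and 61.6 FPKM in IR libraries, against 109.6, 148 and 161 FPKM in CTRL libraries. Every IR library was below every CTRL library, and the mean was 55.8% of control (-0.84 ± 0.18). Klf9 encodes a Kruppel-like transcription factor that the receptor induces directly in many tissues. It had 7.002, 7.58 and 5.33 FPKM in IR cells, against 9.55, 10.2 and 12.5 FPKM in CTRL cells, 61.8% of control without overlap (-0.62 ± 0.14).

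Per1 encodes a repressor of the circadian clock that the hormone also induces. It had 19.6, 29.2 and 11.97 FPKM in IR libraries, against 29.3, 28.1 and 35.7 FPKM in CTRL libraries, and IR replicate 2 lay inside the control range. The log2 fold change was -0.67 ± 0.26, and it was -0.97 without IR replicate 2 and -0.36 without IR replicate 3. Sgk1, a kinase gene induced by serum and by the hormone that regulates ion channels and Foxo3, had 2.99, 5.02 and 2.65 FPKM in IR cells, against 2.49, 4.10 and 3.48 FPKM in CTRL cells. Its difference was 0.05 ± 0.21 and turned to -0.17 without IR replicate 2 and to -0.10 without CTRL replicate 1.

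Zbtb16 encodes PLZF, a zinc finger repressor of stem cells and innate-like lymphocytes. It had 1.29, 1.75 and 1.77 FPKM in IR cells, against 1.495, 1.67 and 1.57 FPKM in CTRL cells, with overlapping groups. The receptor gene Nr3c1 itself had 14.7, 16.9 and 15.5 FPKM in IR cells, against 14.8, 15.7 and 15.0 FPKM in CTRL cells (0.05 ± 0.082), and was the least variable of the 8 in control cells. Zbtb16 had a difference of 0.01 ± 0.14, which turned negative without CTRL replicate 1, without IR replicate 2 or without IR replicate 3, and Nr3c1 was at -0.0038 without IR replicate 2.

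**Figure D1:**
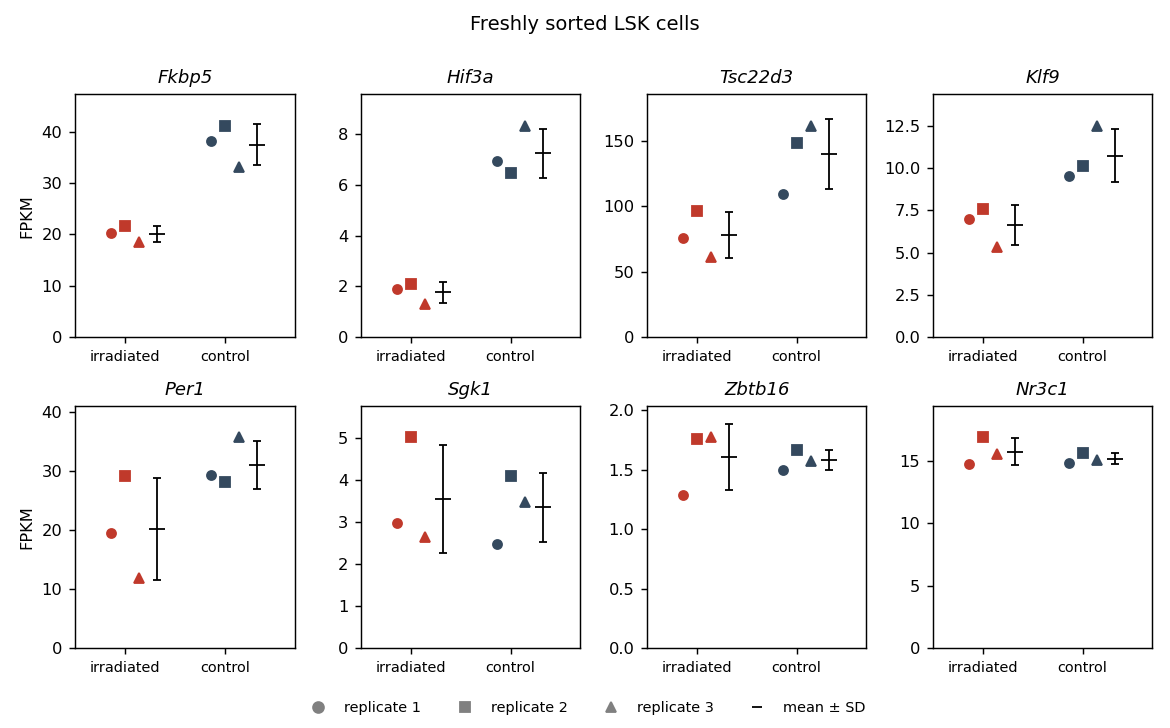
FPKM (y axes, from 0) of the 8 genes in the 3 irradiated (left) and 3 control (right) libraries of freshly sorted LSK cells, with a symbol for each replicate and the mean ± SD in black. Fkbp5, Hif3a, Tsc22d3 and Klf9 lie below all controls, while the other 4 genes overlap.

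Counted over the set, 4 of 8 members were lower in fresh IR than in fresh CTRL cells without overlap, where 5.28% of the 12890 genes tested were, and 0 of 8 were higher without overlap, where 7.42% of genes were. Since this contrast drew up the set, nothing is read from these counts.

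The members also shared an order of libraries within the irradiated group, a pattern noticed in the values. IR replicate 2 was the highest and IR replicate 3 the lowest of the 3 irradiated libraries for Fkbp5, Hif3a, Tsc22d3, Klf9, Per1 and Sgk1, 6 of the 8 members, and not for Zbtb16 and Nr3c1. Among controls, CTRL replicate 3 was the highest for Hif3a, Tsc22d3, Klf9 and Per1 and the lowest for Fkbp5. The share of all genes with the same order was not counted, so nothing particular to the members is read from it. Relative depth was 0.963 in IR replicate 2, 0.990 in IR replicate 3 and 0.768 in CTRL replicate 3. Ribosomal RNA-like rows held 12.3, 15.2 and 15.4% of FPKM in these 3 libraries. The part of depth, ribosomal RNA-like rows, hour of harvest or pool in this order was not tested.

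Of 30 other genes known to be induced by glucocorticoids, 25 were tested in fresh cells and 0 passed in limma in either direction, with 8 at an unadjusted p under 0.05. Over all genes 0.101% passed in fresh cells, and 885 of 12890 had an unadjusted p under 0.05, a smaller share than 8 of 25. Counts at that level in the fresh lists below stand beside the same 885. Of these 25 genes, 12 were higher and 13 lower in IR cells, with a median log2 fold change of -0.0039, beside 0.01 over all genes. The smallest p belonged to Pik3ip1, an inhibitor of PI3 kinase, at 43.4 ± 6.56 FPKM in IR and 71.6 ± 6.12 FPKM in CTRL cells (SD, n = 3 each; -0.72 ± 0.12, adjusted p = 0.105 in limma). The next was the metallothionein gene Mt1, at 36.1 ± 9.46 FPKM in IR and 20.3 ± 4.86 FPKM in CTRL cells, which stood the other way (0.79 ± 0.21, adjusted p = 0.429 in limma).

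Genes around the receptor gave 0 calls in fresh cells as well. Of its chaperones, cofactors and steroid-converting enzymes, 0 of 15 tested passed in limma and 0 had an unadjusted p under 0.05, and the 2 smallest p were those of the phosphatase gene Ppp5c (-0.14 ± 0.089) and of Fkbp4, which encodes the co-chaperone FKBP52 (-0.16 ± 0.11). Among genes the hormone represses, 0 of 5 passed and 1 had an unadjusted p under 0.05, with the chemokine genes Ccl3 (-0.46 ± 0.20) and Ccl4 (-0.45 ± 0.20) first. Of the other circadian clock genes, 0 of 12 passed and 0 had an unadjusted p under 0.05, with Nr1d1 at 0.20 ± 0.11 and Cry1 at -0.18 ± 0.099. Of the other genes of the hypoxia-inducible factor system 0 of 7 passed and 1 had an unadjusted p under 0.05, the prolyl hydroxylase gene Egln3 (0.38 ± 0.12). Of the other FKBP genes 0 of 11 passed and 1 had an unadjusted p under 0.05, Fkbp1b (0.61 ± 0.21), and of the other Kruppel-like factors 0 of 13 passed and 0 reached that level, with Klf1 (0.66 ± 0.32) and Klf16 (0.20 ± 0.10) first.

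Markers of other cells were checked in the same libraries. Summed FPKM of 16 monocyte and macrophage genes lay between 512 and 918 in IR and between 477 and 852 in CTRL libraries, and those of 11 neutrophil genes between 1804 and 3811 in IR and between 2180 and 4333 in CTRL libraries. None of the genes of either list was at 0 in a group, and 0 of 14 and 0 of 11 tested genes passed (1 and 0 at an unadjusted p under 0.05 in limma). Granulocyte progenitor genes summed to between 860 and 972 FPKM in IR and between 558 and 1001 in CTRL libraries, with 0 of 8 passing and 2 at an unadjusted p under 0.05. The T and NK list summed to between 154 and 189 FPKM in IR and between 106 and 113 FPKM in CTRL libraries, most of it the granule gene Nkg7, which averaged 155 ± 16.9 FPKM in IR and 89.4 ± 2.47 FPKM in CTRL cells. Nkg7 was the 1 of its 8 tested genes that rose (0.78 ± 0.093, adjusted p = 0.0238 in limma), and by sign 4 genes of the list were higher and 4 lower in IR cells. In the megakaryocyte list 1 of 8 rose, Selp, and 7 had an unadjusted p under 0.05, with sums of 190 to 246 FPKM in IR and 160 to 219 FPKM in CTRL libraries. Erythroid, B lineage, and mast cell and basophil lists had 0 calls among 8, 9 and 8 tested genes, with 1, 2 and 1 at an unadjusted p under 0.05. Of 12 stem cell enriched genes 0 passed and 4 had an unadjusted p under 0.05, with Slamf1 nearest (0.87 ± 0.12, adjusted p = 0.0523 in limma). Of 6 genes of the LSK sort list, which holds Kit and Ly6a, 0 passed and 2 had an unadjusted p under 0.05. Flt3 averaged 46.7 FPKM in IR and 70.0 in CTRL cells (-0.56 ± 0.11), and Cd48 74.2 and 54.3 (0.46 ± 0.13), both without overlap. The part of these cell populations in the members' values was not tested.

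After 6 days in culture without DL1, Sgk1, Zbtb16, Klf9 and Tsc22d3 rose in irradiated cells, 4 of the 7 members above the expression filter, and 0 of 7 fell. In this comparison 29.7% of 12011 tested genes were called, 13.8% higher and 15.9% lower (16.7% and 12.3% with median-ratio scaling between libraries), so 4 of 7 stands above the share of genes that rose. Zbtb16, 1 of these 4, reached the filter only with IR replicate 2, the library where it was highest, so its place in this count is partly set by its rise. The median log2 fold change of the 7 members was 0.30, beside -0.03 over all genes. Fkbp5, Per1 and Nr3c1 did not pass, and Hif3a, whose mean over the 4 cultured groups was below an FPKM of 1, is given from the fit without the filter.

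Sgk1 had the largest log2 fold change of these 7. It measured 11.9, 10.8 and 7.83 FPKM in IR cultures, against 4.95, 4.04 and 6.12 FPKM in CTRL cultures, with no overlap (0.89 ± 0.17, adjusted p = 0.00319 in limma). The call held without any 1 library, with changes between 0.76 and 1.05. Sgk1 is also the only member with a paired receptor motif in the windows searched. RefSeq (GRCm38.p6) gives 6 start site windows of Sgk1, each from 250 bases before to 50 bases after a start, and the window at chr10:21993640-21993939 on the plus strand is shown because it holds 3 copies of the 6-base receptor motif AGAACA or its reverse complement TGTTCT, in capitals.
Sgk1: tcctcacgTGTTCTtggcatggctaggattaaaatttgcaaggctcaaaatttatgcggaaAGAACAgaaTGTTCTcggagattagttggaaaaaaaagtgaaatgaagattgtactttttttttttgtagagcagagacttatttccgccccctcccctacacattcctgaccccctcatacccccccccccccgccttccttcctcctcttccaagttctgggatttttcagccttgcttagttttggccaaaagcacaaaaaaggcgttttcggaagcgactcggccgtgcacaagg
The copies nearest the start site form a pair separated by 3 bases, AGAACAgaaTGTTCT, 189 bases before the start site, at chr10:21993701-21993715. This paired arrangement occurred in 3 of 32851 RefSeq windows of the same length (0.00913%). A single copy on either strand occurred in 19.0% of windows.

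Windows were found for 6 of the 8 members, 14 in all, and 4 of these 14 held at least 1 copy of the 6-base motif, 3 of Sgk1 and 1 of Tsc22d3. The windows of Fkbp5, Hif3a, Klf9 and Per1 held 0 copies, which says only that these letters are not in these windows. The Tsc22d3 window with a copy, at chrX:140600473-140600772 on the minus strand, is given for comparison, since this gene also rose in irradiated cultures.
Tsc22d3: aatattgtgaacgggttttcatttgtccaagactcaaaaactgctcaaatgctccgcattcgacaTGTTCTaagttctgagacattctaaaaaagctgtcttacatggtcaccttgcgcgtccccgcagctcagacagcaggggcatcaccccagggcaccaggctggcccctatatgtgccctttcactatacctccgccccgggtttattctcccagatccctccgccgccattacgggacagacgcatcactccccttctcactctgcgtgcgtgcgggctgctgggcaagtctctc
A match of letters is a description and not evidence of binding, which was not measured here.

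Klf9 measured 5.34, 6.21 and 5.78 FPKM in IR cultures, against 4.54, 4.52 and 3.63 FPKM in CTRL cultures (0.38 ± 0.080, adjusted p = 0.00553 in limma). Zbtb16 was low but separate, at 1.39, 1.72 and 1.31 FPKM in IR cultures, against 0.867, 0.808 and 0.872 FPKM in CTRL cultures (0.42 ± 0.084, adjusted p = 0.00438 in limma). Klf9 kept its call without any 1 library, with changes between 0.29 and 0.42. Zbtb16 kept its call in the 5 such fits that could test it, with changes between 0.40 and 0.46. Without IR replicate 2 it fell below the filter. Its group means were 1.47 FPKM in IR and 0.849 in CTRL cultures, and 1.05 and 0.815 in those with DL1. Tsc22d3 had 19.0, 15.1 and 19.1 FPKM in IR cultures, against 14.8, 13.0 and 14.5 FPKM in CTRL cultures, again without overlap (0.30 ± 0.095, adjusted p = 0.0308 in limma). This is the least secure of the 4: the adjusted p was 0.122 without CTRL replicate 2, 0.112 without IR replicate 1, 0.0743 without IR replicate 3, 0.0738 in a fit of these 2 groups only and 0.0615 without the filter on low values.

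The remaining members did not pass upward. Fkbp5 had 37.2, 38.3 and 41.9 FPKM in IR cultures, against 42.3, 45.5 and 40.3 FPKM in CTRL cultures, with overlap (-0.12 ± 0.065, adjusted p = 0.173 in limma). Per1 had 7.73, 7.11 and 8.25 FPKM in IR cultures, against 7.19, 6.70 and 7.68 FPKM in CTRL cultures (0.09 ± 0.065, adjusted p = 0.345 in limma). Nr3c1 had 18.1, 16.6 and 14.2 FPKM in IR cultures, against 15.9, 14.7 and 14.1 FPKM in CTRL cultures, which also overlap (0.12 ± 0.080, adjusted p = 0.295 in limma, and 0.0361 without IR replicate 3).

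Hif3a went the other way from the 4 genes that rose. It measured 0.645, 0.675 and 0.517 FPKM in IR cultures, against 1.68, 1.57 and 1.48 FPKM in CTRL cultures, so every IR culture was below every CTRL culture. In the fit without a filter it fell (-0.68 ± 0.075, adjusted p = 9.91e-04 in limma), where 8.18% of 19809 genes fell. It also passed the filter and fell without ribosomal RNA-like rows (-0.87, adjusted p = 4.87e-04 in limma). That fit also rescaled each library to a sum of 1000000, which raised the listed values, so its change is not on the same scale. In a fit of these 2 groups only Hif3a fell as well (adjusted p = 0.00690 in limma). There it passed the filter only through CTRL cultures, where it was higher, so that call adds no separate support. Of the pair of genes that chose the set, Hif3a was thus at 38.9% and Fkbp5 at 91.7% of the control mean in these cultures.

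With DL1 in the culture, 0 of 7 members passed between irradiated and control cells, where 3.16% of genes did (2.51% higher and 0.649% lower). An unadjusted p under 0.05 in limma was reached by 3 of 7 members and by 2231 of 12011 genes. Counts at that level in other lists with DL1 stand beside the same 2231. Sgk1 had 3.00, 4.12 and 3.05 FPKM in IR cultures with DL1, against 1.56, 2.48 and 1.96 FPKM in CTRL cultures with DL1, with no overlap (0.55 ± 0.17, adjusted p = 0.104 in limma, and 0.0491 in a fit of these 2 groups only). Klf9 had 2.87, 2.96 and 2.86 FPKM in IR, against 2.43, 2.46 and 2.22 FPKM in CTRL cultures with DL1 (0.21 ± 0.080, adjusted p = 0.185 in limma). Zbtb16 had 1.06, 0.938 and 1.16 FPKM in IR, against 0.789, 0.787 and 0.870 FPKM in CTRL cultures with DL1 (0.18 ± 0.084, adjusted p = 0.289 in limma).

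Per1 had 7.04, 7.73 and 7.47 FPKM in IR, against 6.70, 6.61 and 6.41 FPKM in CTRL cultures with DL1 (0.15 ± 0.065, adjusted p = 0.239 in limma). With Per1, Sgk1, Klf9 and Zbtb16, 4 of the 7 members above the filter were higher in irradiated cultures with DL1 without overlap, where 15.6% of genes were, although none of the 4 passed. Hif3a, which is below the filter, was lower without overlap (17.5% of the genes above the filter were), at 0.368, 0.628 and 0.439 FPKM in IR, against 1.12, 1.23 and 0.944 FPKM in CTRL cultures with DL1. It fell in the fit without a filter (-0.51 ± 0.075, adjusted p = 0.0205 in limma), where 0.283% of genes fell. Fkbp5 had 51.6, 46.3 and 51.1 FPKM in IR, against 55.0, 51.5 and 57.2 FPKM in CTRL cultures with DL1 (-0.14 ± 0.065, adjusted p = 0.291 in limma). Tsc22d3 (0.07 ± 0.095, adjusted p = 0.700 in limma) and Nr3c1 (0.09 ± 0.080, adjusted p = 0.588 in limma) overlapped between irradiated and control cultures with DL1.

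Whether DL1 changed the effect of irradiation was tested by the interaction term, and 0 of 7 members passed, where 0.0749% of all genes did. An unadjusted p under 0.05 in limma was reached by 0 of 7 members and by 1255 of 12011 genes. The changes after irradiation with DL1 minus those without it were -0.33 ± 0.24 for Sgk1, -0.24 ± 0.12 for Zbtb16, -0.23 ± 0.13 for Tsc22d3 and -0.17 ± 0.11 for Klf9. The 4 genes that rose after irradiation without DL1 are therefore not shown to respond differently with it.

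**Figure D2:**
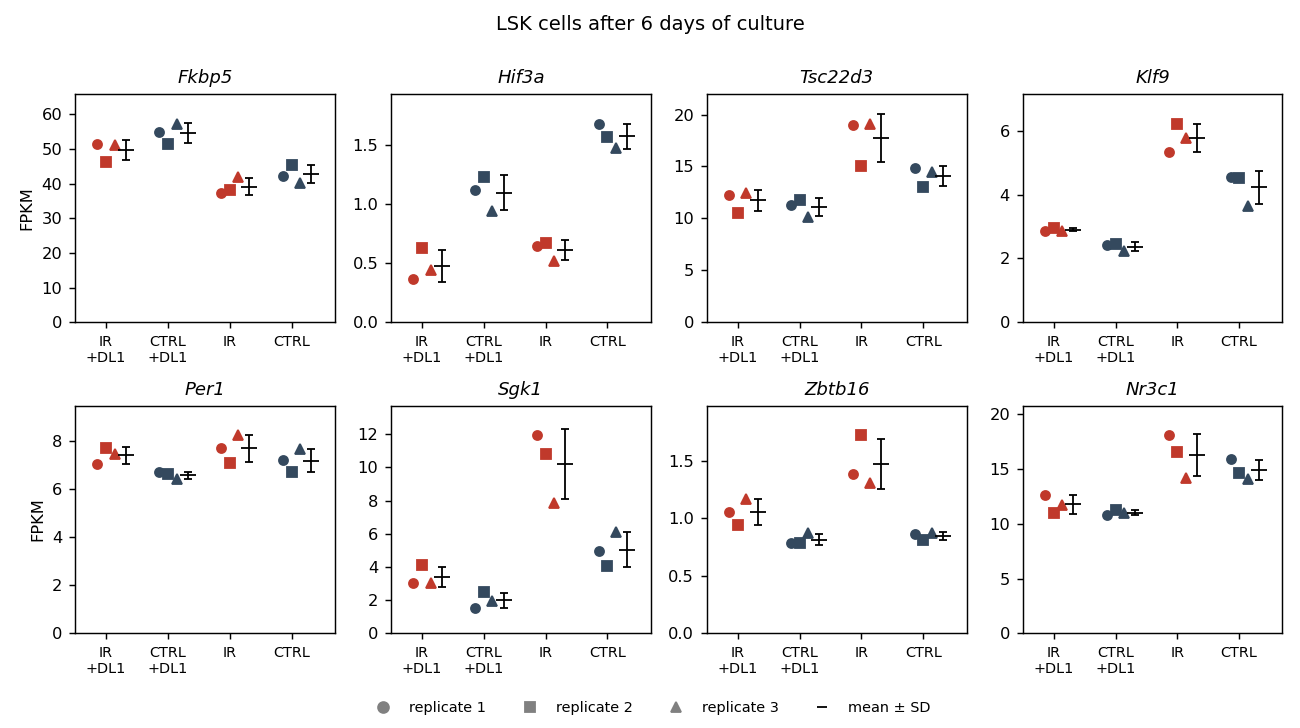
FPKM (y axes, from 0) of the 8 genes in the 4 cultured groups of 3 libraries, irradiated (red) left of control (dark) and cultures with DL1 left of those without, with a symbol for each replicate and the mean ± SD in black. Sgk1 reaches 11.9 FPKM in irradiated cultures without DL1, and Hif3a is lower in irradiated than in control cultures with and without DL1.

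DL1 itself moved members in both directions: Fkbp5 rose, while Sgk1, Klf9, Tsc22d3 and the receptor gene Nr3c1 fell, in control and in irradiated cultures alike. In CTRL cultures 1 of 7 members rose and 4 of 7 fell with DL1, where 26.3% of genes were called, 14.0% higher and 12.3% lower (10.4% and 14.3% with median-ratio scaling). In IR cultures 1 of 7 rose and 5 of 7 fell, where 41.4% were called, 24.4% higher and 17.0% lower (16.9% and 20.5% with median-ratio scaling). Zbtb16, 1 of these 5, reached the filter only with IR replicate 2, so its place in this count is partly set by its high level there. The median log2 fold change of the members was -0.32 in CTRL and -0.43 in IR cultures, beside 0.04 and 0.06 over all genes. These comparisons use the same cultured libraries as those above, so their values are not independent of them.

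Klf9 had the smallest p of the members, and fell by 0.63 ± 0.080 in CTRL cultures (adjusted p = 1.05e-04 in limma) and by 0.80 ± 0.080 in IR cultures (adjusted p = 1.18e-05 in limma), and each group with DL1 lay wholly below its group without DL1. Sgk1 fell by 1.01 ± 0.17 on the log2 scale in CTRL cultures (adjusted p = 7.88e-04 in limma) and by 1.34 ± 0.17 in IR cultures (adjusted p = 6.77e-05 in limma). Nr3c1 had 10.8, 11.3 and 10.98 FPKM in CTRL cultures with DL1, against 15.9, 14.7 and 14.1 FPKM in CTRL cultures without it, and 12.6, 10.97 and 11.7 FPKM in IR cultures with DL1, against 18.1, 16.6 and 14.2 FPKM in IR cultures without it. The receptor gene thus fell by 0.40 ± 0.080 in CTRL cultures (adjusted p = 0.00266 in limma) and by 0.43 ± 0.080 in IR cultures (adjusted p = 0.00112 in limma).

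Fkbp5 was the member that rose with DL1, by 0.35 ± 0.065 on the log2 scale in CTRL cultures (adjusted p = 0.00174 in limma) and 0.34 ± 0.065 in IR cultures (adjusted p = 0.00152 in limma). Its lowest library with DL1, at 46.3 FPKM, was above its highest without DL1, at 45.5 FPKM. Tsc22d3 had 11.3, 11.8 and 10.1 FPKM in CTRL cultures with DL1, against 14.8, 13.0 and 14.5 FPKM in CTRL cultures without it (-0.32 ± 0.095, adjusted p = 0.0251 in limma). That call was lost without CTRL replicate 1 (adjusted p = 0.0949), CTRL replicate 3 (0.0677), CTRL with DL1 replicate 1 (0.0559) or CTRL with DL1 replicate 3 (0.103). In IR cultures Tsc22d3 had 12.2, 10.6 and 12.4 FPKM with DL1, against 19.0, 15.1 and 19.1 FPKM without it, and the call held without any 1 library (-0.55 ± 0.095, adjusted p = 6.72e-04 in limma).

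Zbtb16 passed with DL1 in IR cultures (-0.27 ± 0.084, adjusted p = 0.0246 in limma) and not in CTRL cultures (-0.03 ± 0.084, adjusted p = 0.849 in limma), but the interaction above is the test of that difference and did not pass. In IR cultures, where libraries of the same number deviated together, a fit of these 2 groups with the replicate as a block gave Zbtb16 an adjusted p of 0.103 in limma, and without the block 0.0909. The call was also lost without IR with DL1 replicate 1 (adjusted p = 0.0544) or replicate 2 (0.0825). Hif3a, in the fit without a filter, fell by 0.30 ± 0.075 with DL1 in CTRL cultures (adjusted p = 0.0207 in limma), where 8.27% of genes fell, and stood at -0.13 ± 0.075 in IR cultures (adjusted p = 0.246 in limma). Per1 did not pass in either, at -0.11 ± 0.065 in CTRL (adjusted p = 0.235 in limma) and -0.05 ± 0.065 in IR cultures (adjusted p = 0.585 in limma).

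**Figure D3:**
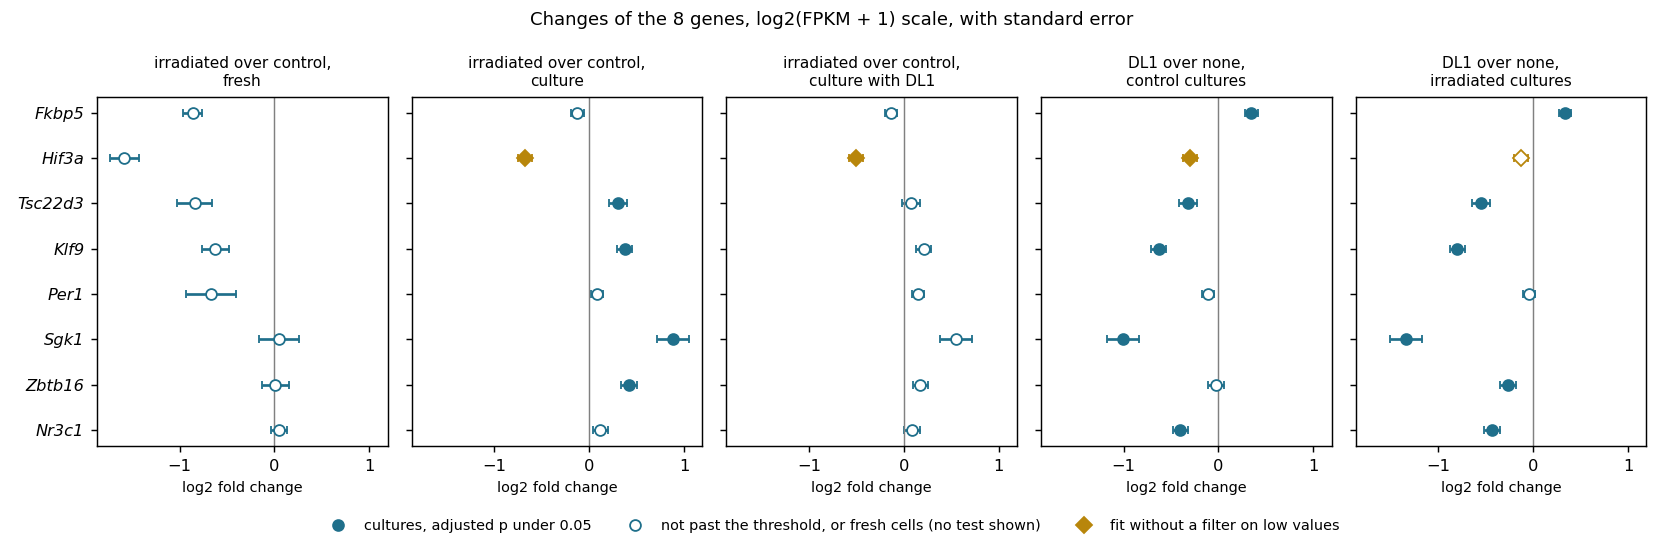
Log2 fold changes (x axes) with standard errors of the 8 genes (rows) in the 5 comparisons, irradiated over control in the first 3 panels and DL1 over none in the last 2, on the log2(FPKM + 1) scale. Filled circles passed an adjusted p of 0.05 in cultures, open circles did not pass or belong to fresh cells, and diamonds are Hif3a in the fit without a filter. Tsc22d3 and Klf9 stand at -0.84 and -0.62 in fresh cells and at 0.30 and 0.38 in cultures without DL1.

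Across the 4 cultured groups the members fell into different orders of mean FPKM. For Klf9 the order from the highest was IR, CTRL, IR with DL1 and CTRL with DL1, and all 4 groups were separate. Sgk1, Tsc22d3 and Nr3c1 had the same order, but CTRL overlapped with IR with DL1 for Sgk1, the 2 groups with DL1 overlapped for Tsc22d3, and for Nr3c1 IR overlapped with CTRL and the 2 groups with DL1 overlapped. Zbtb16 ran IR, IR with DL1, CTRL and CTRL with DL1, with overlap between the last 2 only. Fkbp5 ran CTRL with DL1, IR with DL1, CTRL and IR, with overlap within each of the 2 pairs, and Hif3a ran CTRL, CTRL with DL1, IR and IR with DL1, with overlap between the last 2. Per1 lay between group means of 6.57 and 7.70 FPKM, and its upper 3 groups overlapped.

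Fresh and cultured levels can only be set side by side, because their tables were scaled separately. Tsc22d3 averaged 17.7 ± 2.29 FPKM in IR and 14.1 ± 0.971 FPKM in CTRL cultures without DL1, beside 77.9 ± 17.6 FPKM in fresh IR and 139.7 ± 26.9 FPKM in fresh CTRL cells. Per1 averaged 7.70 ± 0.570 FPKM in IR and 7.19 ± 0.489 FPKM in CTRL cultures without DL1, beside 20.2 ± 8.62 FPKM in fresh IR and 31.0 ± 4.06 FPKM in fresh CTRL cells. Hif3a and Klf9 were also listed lower in cultured than in fresh CTRL cells. The receptor gene was at similar listed levels in both, 14.9 ± 0.942 FPKM in CTRL cultures and 15.2 ± 0.426 FPKM in fresh CTRL cells, and Fkbp5 at 42.7 ± 2.60 FPKM and 37.5 ± 4.02 FPKM.

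Of the other genes known to be induced by glucocorticoids, 11 of 25 tested rose and 0 fell in irradiated cultures without DL1, and 14 did not pass. Over all genes 13.8% rose and 15.9% fell in this comparison, and the counts of the lists that follow stand beside the same shares. The list had a median log2 fold change of 0.28, beside -0.03 over all genes. Tgm2, a transglutaminase gene, averaged 63.4 ± 10.9 FPKM in IR and 25.2 ± 1.77 FPKM in CTRL cultures (1.28 ± 0.12, adjusted p = 9.68e-05 in limma). Anxa1, whose product annexin A1 carries anti-inflammatory effects of the hormone, averaged 206 ± 22.5 FPKM in IR and 135 ± 7.06 FPKM in CTRL cultures (0.60 ± 0.086, adjusted p = 7.03e-04 in limma), and the PI3 kinase inhibitor gene Pik3ip1 (0.50 ± 0.060) and the chemokine receptor gene Cxcr4 (0.32 ± 0.046) also rose. With DL1 4 of 25 rose and 0 fell, where 2.51% of all genes rose: Anxa1, Tgm2, the transcription factor gene Cebpd and Cxcr4.

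With DL1 against none, 2 of 25 rose and 6 fell in CTRL cultures, where 14.0% of all genes rose and 12.3% fell. In IR cultures 3 rose and 10 fell (2 and 12 with median-ratio scaling), where 24.4% rose and 17.0% fell. Calls of either direction made up 26.3% of all genes in CTRL and 41.4% in IR cultures. In both, falls made up a larger share of the list than of all genes, and rises a smaller one. By sign 13 genes were higher and 12 lower with DL1 in CTRL cultures, and 5 higher and 20 lower in IR cultures. The list had median log2 fold changes of 0.02 and -0.21. Mertk, a receptor tyrosine kinase of macrophages that clears dying cells, fell the furthest, to 0.214 ± 0.0412 FPKM in CTRL cultures with DL1, against 2.05 ± 0.687 FPKM in CTRL cultures without it (-1.31 ± 0.17, adjusted p = 1.53e-04 in limma). In IR cultures it averaged 0.359 ± 0.0803 FPKM with DL1 and 5.59 ± 1.56 FPKM without it (-2.25 ± 0.17, adjusted p = 1.91e-06 in limma). Mertk averaged above the filter level of 1 FPKM only in cultures without DL1, so its place among the falls is partly set by them. Errfi1, a feedback inhibitor of the EGF receptor, rose with DL1 in CTRL cultures (1.24 ± 0.14, adjusted p = 5.83e-05 in limma) and in IR cultures (1.11 ± 0.14, adjusted p = 8.99e-05 in limma).

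**Figure D4:**
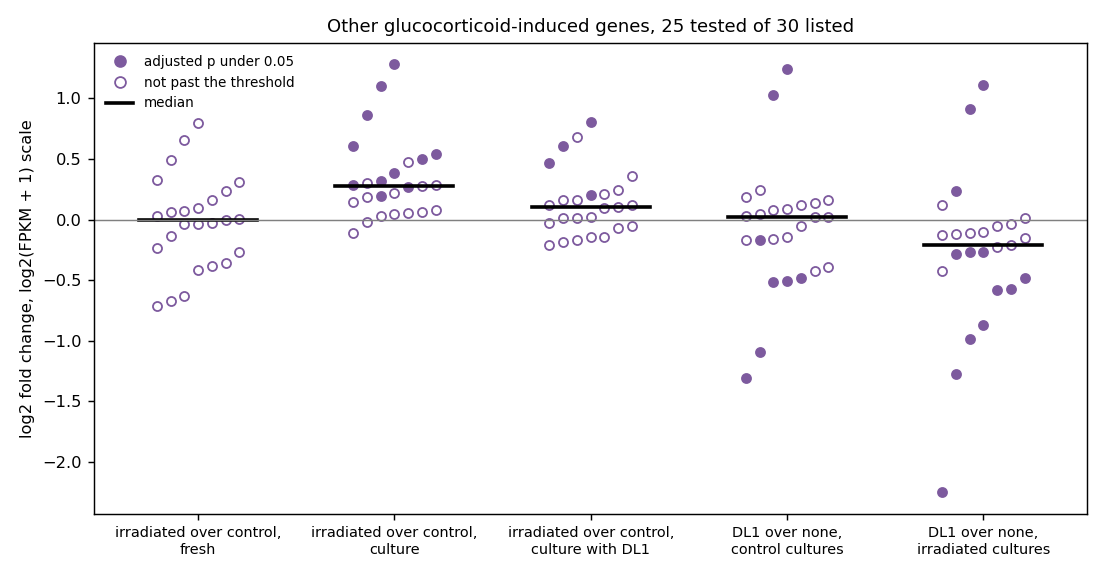
Log2 fold changes (y axis, log2(FPKM + 1) scale) of the 25 tested genes of the list of other glucocorticoid-induced genes in the 5 comparisons (x axis), filled where the adjusted p was under 0.05, with the median as a bar. In fresh cells 0 of 25 passed, and in irradiated over control cultures without DL1 11 rose and 0 fell.

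The receptor's own machinery was called mostly downward in irradiated cultures without DL1, where 1 of 15 tested genes rose and 6 fell. Hsd11b1, whose enzyme regenerates active glucocorticoid from its inactive form inside the cell, averaged 25.9 ± 5.84 FPKM in IR and 12.7 ± 1.22 FPKM in CTRL cultures (0.96 ± 0.14, adjusted p = 8.64e-04 in limma). The genes that fell included Ptges3, which encodes the Hsp90 co-chaperone p23 (-0.38 ± 0.059), Hsp90aa1 (-0.35 ± 0.067) and the co-chaperone gene Stip1 (-0.25 ± 0.056). With DL1 1 of 15 rose and 0 fell, again Hsd11b1, at 16.7 ± 2.30 FPKM in IR and 8.87 ± 0.127 FPKM in CTRL cultures (0.83 ± 0.14, adjusted p = 0.00932 in limma). DL1 against none lowered Hsd11b1, the only call among 15 in CTRL cultures, and in IR cultures 1 rose, Stip1, and 1 fell, Hsd11b1. The rise of Stip1 was not called with median-ratio scaling or without ribosomal RNA-like rows.

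Of genes that the hormone represses 8 were tested in cultures, and 1 rose and 1 fell in IR over CTRL cultures without DL1, a share below the 29.7% of all genes called. The cytokine gene Tnf fell (-0.38 ± 0.093) and the chemokine gene Ccl2 rose (0.79 ± 0.26, adjusted p = 0.0401 in limma). The groups overlapped for Ccl2, which was low and variable, at 2.89 ± 1.04 FPKM in IR and 1.35 ± 1.12 FPKM in CTRL cultures. With DL1 0 of 8 passed and 2 had an unadjusted p under 0.05 in limma. DL1 raised 2 and lowered 1 of the 8 in CTRL cultures and raised 3 and lowered 2 in IR cultures, with Icam1 higher and Nos2 lower in both. Of the other clock genes, 4 of 11 rose in IR over CTRL cultures without DL1 and 0 fell. Per3 averaged 3.81 ± 0.172 FPKM in IR and 2.06 ± 0.165 FPKM in CTRL cultures (0.65 ± 0.070, adjusted p = 1.49e-04 in limma), and Arntl, Per2 and Tef also rose, whereas the member Per1 did not pass. Per2 stands on the induced list as well. In IR over CTRL cultures with DL1 0 of these 11 clock genes passed and 1 had an unadjusted p under 0.05 in limma, and DL1 raised 3 and lowered 1 in CTRL cultures and raised 2 and lowered 4 in IR cultures.

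Relatives of the members gave mixed calls in cultures. In IR over CTRL without DL1, 2 Kruppel-like factor genes rose, Klf3 and Klf6, and 1 fell, Klf16, of 9 tested. Of 11 other FKBP genes 1 rose and 3 fell (2 and 3 with median-ratio scaling), with Fkbp3, Fkbp1a and Fkbp4 lower. Hif1a was the single call of 7 in the hypoxia-inducible factor system (0.25 ± 0.082, adjusted p = 0.0367 in limma), and that call was lost without ribosomal RNA-like rows. With DL1 these 3 lists had 0 calls of 9, 11 and 7, with 4, 3 and 1 at an unadjusted p under 0.05 in limma. DL1 against none in CTRL cultures gave 0 up and 5 down for the Kruppel-like factors, 1 up and 3 down for the FKBP genes and 1 up and 2 down for the hypoxia-inducible factor system, and in IR cultures 1 and 3, 2 and 3, and 0 and 2.

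Marker genes of myeloid cells were also called in the cultures. Monocyte and macrophage genes, 16 in all with none at 0 in a group, summed to between 5279 and 7771 FPKM in IR and between 2815 and 3929 FPKM in CTRL cultures without DL1, and 14 of 16 rose and 0 fell. With DL1 they summed to between 1389 and 1786 FPKM in IR and between 826 and 1093 FPKM in CTRL cultures. There 9 of 16 rose and 0 fell in irradiated over control cultures, where 2.51% of all genes rose. In the same comparison 8 of 8 granulocyte progenitor, 4 of 8 neutrophil and 1 of 10 mast cell and basophil genes rose, and 1 of 6 sort list genes fell. DL1 against none lowered 15 of 16 monocyte and macrophage genes in CTRL and 16 of 16 in IR cultures, where 12.3% and 17.0% of all genes fell. Neutrophil genes had 1 up and 5 down of 8 in CTRL cultures, and 1 and 7 in IR cultures. Granulocyte progenitor genes had 0 up and 6 down of 8 in each. Mast cell and basophil genes had 4 up and 0 down of 10, and 3 and 3. T and NK genes had 4 up and 0 down of 4, and 3 and 0, where 14.0% and 24.4% of all genes rose. In irradiated over control cultures without DL1, 8 of 8 granulocyte progenitor genes, 5 of 8 neutrophil, 6 of 10 mast cell and basophil and 3 of 5 megakaryocyte genes rose as well, and 0 fell in these lists. Of the T and NK list 1 of 4 rose, of the erythroid list 1 of 3 fell, of the B lineage list 1 of 2 rose and 1 fell, and of the stem cell enriched list 1 of 6 rose and 1 fell. Of the sort markers Cd34 and Flt3 fell. The part of these populations in the members' values was not tested.

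Genes whose log2(FPKM + 1) followed a member most closely over the 12 cultured libraries are given as a description, since these libraries share 4 groups. For Sgk1 they were Peli2 (Pearson r = 0.992), Fcgr3 (0.991) and Tlr7 (0.990), of which Fcgr3 is on the monocyte and macrophage list. For Klf9 they were Nfic (0.994), Gng12 (0.991) and Ocrl (0.989), and for Nr3c1 Reep3 (0.989), Man1a (0.981) and Hif1a (0.975). Fkbp5 was nearest to Nox1 (0.977), Nfatc2ip (0.977) and Acsf2 (0.975), and Tsc22d3 to Sfxn3 (0.968), Nab2 (0.961) and Gltp (0.958). Zbtb16 was nearest to Sun2 (0.963), Trappc10 (0.956) and Os9 (0.955), and Per1 to Gipc1 (0.918), Slc12a9 (0.899) and Loxl3 (0.887), the loosest of the 7. Over the 6 fresh libraries Fkbp5 was nearest to Samsn1 (0.995), Ddx4 (0.990) and Pnp1 (0.986), and Hif3a to Rbm34 (more than 0.999), Gm347 (0.990) and 2700078E11Rik (0.986). No member was among the 3 nearest genes of another in these lists, which for fresh cells cover only Fkbp5 and Hif3a. Between members, r in fresh libraries ran from -0.332 (Hif3a and Nr3c1) to 0.971 (Tsc22d3 and Klf9). In cultured libraries it ran from -0.964 (Fkbp5 and Sgk1) to 0.913 (Klf9 and Sgk1).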

How the data were processed

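The authors deposited gene values in FPKM in 2 tables, 1 for 6 fresh and 1 for 12 cultured libraries. Per the submitters' processing notes, TopHat 1.4.1, Cufflinks 1.3.0 and Cuffdiff were used, and the build named is the human hg19 although the samples are mouse; the annotation is not given in the sources used here, so no coordinates of measured genes are printed. Columns were matched to samples by title, with 0 left unmapped. Where rows shared a name (28 repeats), the row with the higher mean was kept.

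All genes whose mean FPKM in a table reached 1 were tested with limma 3.58.1 (R 4.3.3) on log2(FPKM + 1), using a mean-variance trend, Benjamini-Hochberg adjustment at 0.05 and 1 fit for the 4 cultured groups. The code was tested on simulated data. FPKM carry no read counts, so no interval from counting is given.

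The members and the 18 gene lists (232 entries, 221 of 226 distinct names listed) were chosen with earlier results of these data known. All members are named in every comparison; of another list, up to 4 genes with the smallest p among those that passed, or up to 2 where none passed, and the 3 genes most like each member.

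Same-numbered libraries of IR cultures with and without DL1 had correlated deviations from their group means (r = 0.235, 0.145 and 0.355), so that comparison was also fitted with the replicate as a block. In no other comparison did all 3 pairs exceed 0.1. The alternatives used another pseudocount (0.1 or 5), no or a stricter filter (mean of 5), median-ratio scaling, 2-group fits, the block and leaving out each library. Another removed 560 ribosomal RNA-like rows (ribosomal RNA, snRNA, snoRNA, microRNA, tRNA and other small noncoding RNA). It then rescaled each library to a sum of 1000000, which raised the listed values. The 2-group fit with a block was added after seeing the data. Promoter windows come from RefSeq (GRCm38.p6).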

Additional observations from a re-analysis of the deposited data

Results flagged for a closer look

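Tsc22d3 and Klf9 stood in opposite directions after irradiation in fresh and in cultured cells, with no overlap between irradiated and control libraries in either. Tsc22d3 had a log2 fold change of -0.84 in fresh cells and 0.30 in cultures without DL1. Klf9 had -0.62 in fresh cells, 0.38 in cultures lacking DL1 and 0.21 in cultures given DL1. The fresh values belong to the contrast that chose the set, the tables were scaled separately, and the difference between fresh and cultured cells was not tested.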

How the results depend on the processing

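Of 625 values of single members under alternatives, 589 kept their direction and side of the threshold, 20 lost a call, 2 gained a call and 14 changed sign, all 14 uncalled. These counts include fresh cells, the contrast that chose the set, where the calls of members are no test. Median-ratio scaling, pseudocounts of 0.1 and 5 and the replicate block in the fit of all 4 groups changed no member count in cultures. Under the block 4, 0, 5, 6 and 0 of 7 passed in the cultured comparisons and the interaction. The 2-group fit with a replicate block gave 5 for DL1 in IR cultures. Same-numbered fresh libraries correlated with r = 0.211, 0.118 and 0.0571, and pairs of unlike number between IR and CTRL with r between -0.223 and 0.0737. Whether same-numbered fresh libraries share more than a number was not tested. In fresh cells, the contrast that chose the set, no calls of members are given. Without 1 library the log2 fold change of Fkbp5 lay between -0.945 and -0.795 and that of Hif3a between -1.67 and -1.45. In cultures without DL1 4 passed after irradiation, 2 at a mean of at least 5 (5 tested), 4 without a filter and 4 in the 2-group fit (3 higher each, Hif3a lower, Tsc22d3 lost), 5 without ribosomal RNA-like rows (Hif3a lower) and 3 to 4 without 1 library; with DL1 0 passed, but 1 without a filter (Hif3a, lower), 1 without ribosomal RNA-like rows (Hif3a), 1 in the 2-group fit (Sgk1, higher) and 0 to 0 without 1 library. DL1 calls in CTRL cultures were 5, and 6 without a filter, without ribosomal RNA-like rows and in the 2-group fit (Hif3a added, lower). DL1 calls ranged from 4 to 5 in CTRL and 5 to 6 in IR cultures without 1 library. In fresh cells Zbtb16 turned to -0.012 without ribosomal RNA-like rows. Values without 1 library that spanned 0 were, in fresh cells, Zbtb16 between -0.039 and 0.0997, Sgk1 between -0.173 and 0.189 and Nr3c1 between -0.0038 and 0.0889, and, in the interaction, Fkbp5 between -0.0576 and 0.0368 and Nr3c1 between -0.119 and 0.0448. Over all genes, 13 calls in fresh cells became 4 without a filter and 25 without ribosomal RNA-like rows, 3568 after irradiation without DL1 became 1656 in the 2-group fit, and 380 with DL1 became 999 there and 222 without a filter; the interaction's 9 lay between 0 and 191 without 1 library. The causes were not tested. FPKM hold no counts, so a limit set by depth cannot be given. Zbtb16, and Hif3a in cultures, lie near an FPKM of 1, where the log2(FPKM + 1) scale understates changes.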
